A study of Mus musculus with 6 samples.

Results

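Traffic between nucleus and cytoplasm passes through nuclear pore complexes, rings of proteins called nucleoporins that are set into the nuclear envelope. Scaffold nucleoporins shape the ring, and others carry phenylalanine-glycine (FG) repeats that fill its channel. Soluble receptors (importins, transportins and exportins) bind cargo, pass through the FG mesh and load or release the cargo under the control of the GTPase Ran. The genes described here were taken by symbol from the annotation of the array: those named Nup followed by a number form the pore proteins, and those named Kpna, Kpnb, Ipo, Xpo or Tnpo form the transport receptors. The rule found 37 genes among 12393 measured, of which 16 were pore proteins and 21 transport receptors. No measured value entered this choice, and all 37 were tested, since no filter on dim genes was used.

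RNA came from wild-type mouse embryonic fibroblasts (MEF), connective tissue cells grown from embryos. Starved cells (3 arrays) had been starved for 6 h, and control cells (3 arrays) had been kept in Normal Medium; the labels name no other treatment or allele and do not say what the starvation medium lacked. The arrays of a group are called biological replicates without mention of separate cultures, so the p-values cover the spread between these arrays alone, and that spread may be technical. Values are log2 array signals, differences are starved minus control on that scale with their standard error (SE), "rose" and "fell" mean an adjusted p below 0.05 in limma over all 12393 genes, and n is 3 arrays per group throughout. A lower signal from bulk RNA can come from fewer cells of a type or from less RNA per cell, and these cannot be told apart.

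All 6 arrays had similar signal distributions, with medians over genes between 7.18 and 7.28, and replicate arrays differed by a median of 0.082 to 0.13 per gene. Of 10 fibroblast markers 8 had control signals between 10.37 and 14.03, and the others were Lum (7.37) and Thy1 (4.99). Among the 10, 6 rose and 2 fell, or 80% called beside 44.1% of all genes. The 23 measured markers of blood, epithelial, endothelial and pluripotent cells averaged 4.33 to 4.34 in control and 4.29 to 4.40 in starved arrays; 3 of them rose and 3 fell. The 3' minus 5' difference of the array's beta-actin control probe sets was 0.011 to 0.027 in control and 0.060 to 0.14 in starved arrays. That of the Gapdh control probe sets showed no such rise, at -0.023 to 0.030 in control and -0.095 to 0.022 in starved arrays. The 19 measured genes of a G2/M and mitosis list all rose, with a median of 0.73, where 22.1% of all genes rose. With the arrays centred on poly-A spike-ins 13 of the 19 rose, with a median of 0.31. The part of these shifts in the results below was not tested.

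The transfer RNA exporter Xpot and the channel protein Nup98 showed the largest falls among the 37 genes, and the transportins Tnpo2 and Tnpo1 and importin beta, Kpnb1, the largest rises. Of the 37 genes 8 rose and 8 fell; 21 did not pass. This is 43.2% called, close to the 44.1% called among all 12393 genes, so the share of called genes is not a result about nuclear transport. Of the 16 pore proteins 5 fell and 2 rose, with a median difference of -0.13. Of the 21 transport receptors 6 rose and 3 fell, with a median of 0.0023. Among all genes 22.1% rose, 22.0% fell and the median was -0.048. Tnpo2 and Xpot, 5.41% of the set, were called with a size of 1 or more (log2), as were 4.38% of all genes.

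**Figure D1:**
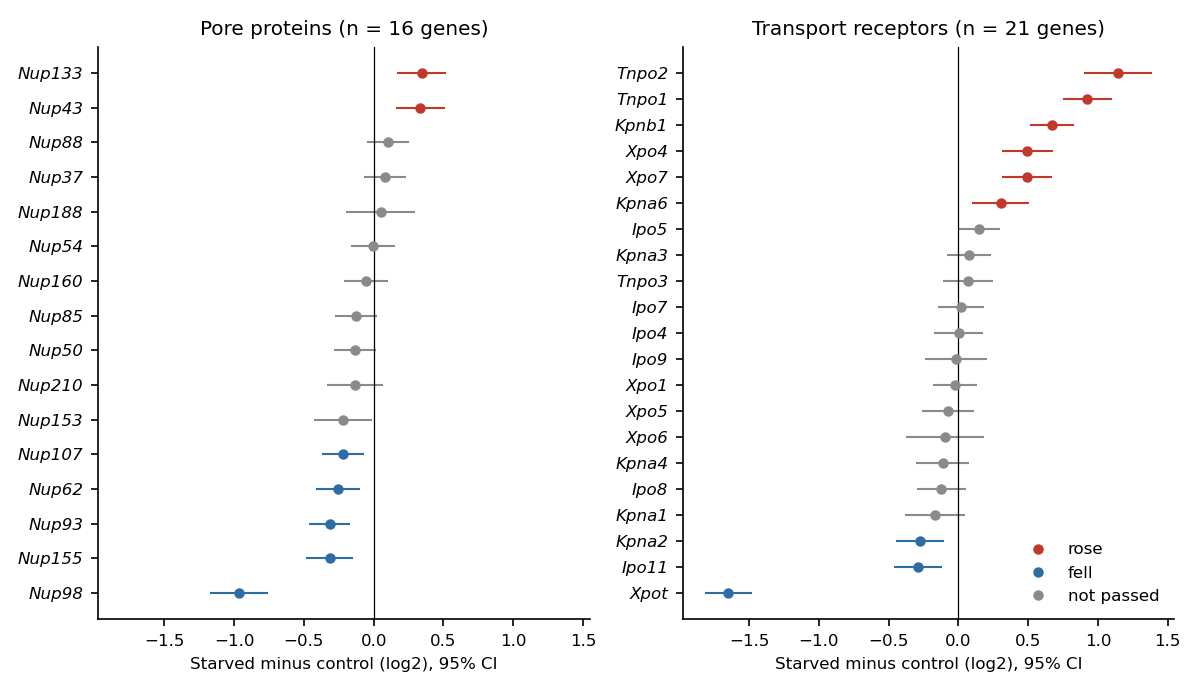
Difference between starved and control arrays on the log2 scale for each of the 16 pore proteins (left) and 21 transport receptors (right); points are limma estimates and bars their 95% confidence intervals (n = 3 arrays per group), coloured by the adjusted p below 0.05. Xpot (-1.65) and Nup98 (-0.96) lie lowest, and Tnpo2 (1.14) and Tnpo1 (0.92) highest.

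Exportin-t, encoded by Xpot, carries mature transfer RNAs out of the nucleus. Its signal was 10.07, 9.90 and 9.93 on the control arrays and 8.33, 8.27 and 8.36 on the starved arrays. Every starved array was over 1 unit below every control array, and the fall was 3.13-fold, with a difference of -1.65 (SE 0.074, limma adjusted p = 2.01e-07). Nup98 is a mobile FG protein of the channel, and its gene also encodes the scaffold protein Nup96. It read 7.78, 7.73 and 7.83 in control and 7.01, 6.68 and 6.76 in starved cells, again without overlap. The difference was -0.96 (SE 0.093, limma adjusted p = 2.33e-05). Both genes were measured by 1 probe set each, so no second probe set checks them. Where other genes have further probe sets, the p of those sets is adjusted over the 20380 probe sets with 1 gene, each tested on its own.

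The transportins bring RNA-binding proteins into the nucleus: Tnpo1 and its close paralog Tnpo2 carry hnRNP proteins, and Tnpo3 carries splicing factors of the SR family. Tnpo2 was at 7.12, 7.30 and 7.35 in control and at 8.48, 8.56 and 8.16 in starved cells, so that it rose 2.21-fold (1.14 (SE 0.11, limma adjusted p = 2.25e-05)). Tnpo1 went from 9.31, 9.15 and 9.34 to 10.11, 10.24 and 10.23, a difference of 0.92 (SE 0.078, limma adjusted p = 9.99e-06). In both genes the lowest starved array stood well above the highest control array. The second probe set of Tnpo2 rose too (0.60), whereas a much dimmer second set of Tnpo1 read -0.18 and did not pass. For Tnpo3 the mean was 9.20 ± 0.055 in control and 9.27 ± 0.12 in starved cells (SD), the groups overlapped, and the difference of 0.068 did not pass (95% CI -0.11 to 0.25). Its interval lies below those of Tnpo1 (95% CI 0.75 to 1.10) and Tnpo2 (95% CI 0.9 to 1.39), although the difference between these genes was not tested. The Tnpo3 probe set used can bind several transcripts, and the dimmer sets of Tnpo3 read 0.16 and 0.21 and did not pass. Kpnb1, the importin that works with the importin alpha adaptors, read 9.67, 9.59 and 9.64 in control and 10.37, 10.31 and 10.23 in starved cells. It rose 1.59-fold (0.67 (SE 0.07, limma adjusted p = 3.97e-05)), and all 4 of its probe sets rose, by 0.32 to 0.67.

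**Figure D2:**
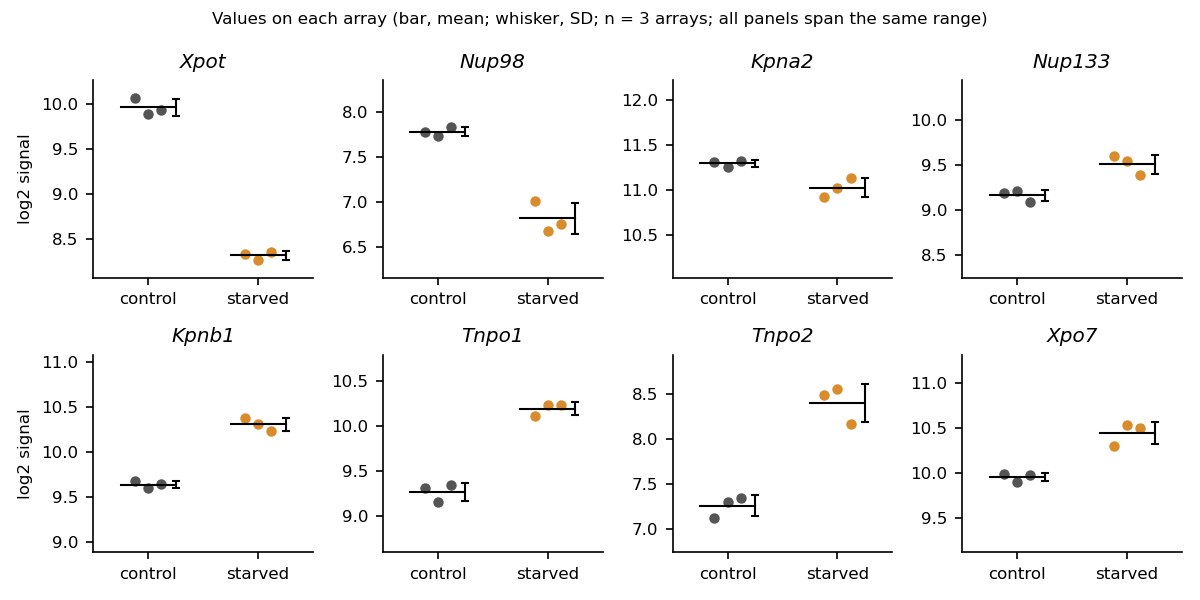
Log2 signal of 8 members on each of the 3 control and 3 starved arrays; points are arrays, horizontal bars group means and whiskers SD, with the same range in each panel. Xpot, Nup98 and Kpna2 are lower on every starved array, and Nup133, Kpnb1, Tnpo1, Tnpo2 and Xpo7 higher on every starved array.

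Promoter windows of the 5 genes with the largest changes are shown because a shift in transcript level can be set beside the sequence around the start site. The windows, from RefSeq on GRCm38.p6, run from 250 bases before to 50 after a start site, and 30 of the 37 genes had one. For Tnpo2, Tnpo1 and Nup98, which have 2 windows each, the one with matches is printed. Capitals mark the motifs searched on both strands: the E-box CACGTG, the CCAAT box, the ETS core CCGGAAG, the NRF1 core GCGCATG, the cell cycle element CHR (TTTGAA) and the ATF4 element TGATGNAA, the last chosen after the value of Xpot was known.
Xpot (chr10:121626283-121626582, minus strand): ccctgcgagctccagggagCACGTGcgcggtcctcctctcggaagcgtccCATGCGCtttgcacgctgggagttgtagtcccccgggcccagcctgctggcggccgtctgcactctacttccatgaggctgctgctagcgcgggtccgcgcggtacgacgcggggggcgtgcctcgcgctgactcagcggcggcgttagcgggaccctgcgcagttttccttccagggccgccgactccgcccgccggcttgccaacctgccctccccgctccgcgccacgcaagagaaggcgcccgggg
Tnpo2 (chr8:85036643-85036942, plus strand): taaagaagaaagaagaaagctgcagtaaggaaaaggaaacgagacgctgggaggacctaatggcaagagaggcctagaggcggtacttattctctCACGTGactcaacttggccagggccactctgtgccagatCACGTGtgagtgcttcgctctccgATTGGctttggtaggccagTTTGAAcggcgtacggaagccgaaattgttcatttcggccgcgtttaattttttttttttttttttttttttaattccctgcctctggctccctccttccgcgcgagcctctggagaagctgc
Tnpo1 (chr13:98926335-98926634, minus strand): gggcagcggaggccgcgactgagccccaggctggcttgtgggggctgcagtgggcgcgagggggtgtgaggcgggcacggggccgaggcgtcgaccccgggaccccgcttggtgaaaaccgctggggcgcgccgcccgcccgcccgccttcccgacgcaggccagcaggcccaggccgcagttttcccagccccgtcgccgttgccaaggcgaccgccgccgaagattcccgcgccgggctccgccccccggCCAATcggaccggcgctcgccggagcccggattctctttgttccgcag
Kpnb1 (chr11:97187843-97188142, minus strand): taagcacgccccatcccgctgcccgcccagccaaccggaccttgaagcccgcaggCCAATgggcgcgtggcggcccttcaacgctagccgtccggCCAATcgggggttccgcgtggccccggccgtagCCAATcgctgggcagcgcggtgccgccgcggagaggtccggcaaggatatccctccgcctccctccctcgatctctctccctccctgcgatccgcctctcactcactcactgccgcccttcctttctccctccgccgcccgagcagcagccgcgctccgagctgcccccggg
Nup98 (chr7:102210117-102210416, minus strand): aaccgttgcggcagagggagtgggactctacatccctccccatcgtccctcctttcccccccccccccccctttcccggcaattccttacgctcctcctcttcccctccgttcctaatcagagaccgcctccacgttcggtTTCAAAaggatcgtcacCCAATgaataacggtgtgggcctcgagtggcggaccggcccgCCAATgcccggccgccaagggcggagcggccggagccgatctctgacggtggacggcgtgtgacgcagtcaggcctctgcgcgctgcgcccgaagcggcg
The Xpot window held an E-box starting 231 bases before the start site and an NRF1 core on the reverse strand. The Tnpo2 window held 2 E-boxes, a reverse CCAAT box and a CHR match, the Tnpo1 window 1 CCAAT box, the Kpnb1 window 3 CCAAT boxes, and the Nup98 window 2 CCAAT boxes and a reverse CHR match.

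Across the 30 genes with a window, NRF1 cores were found in 7 (23.3%), against 6.73% of the 9887 tested genes with a window. E-boxes were also found in 7 genes (23.3%, against 10.8%), CCAAT boxes in 17 (56.7%, against 42.3%), ETS cores in 6 (20%, against 16.3%) and CHR matches in 6 (20%, against 15.4%). The ATF4 element was in none of the 30 windows and in 3.13% of all tested genes. NRF1 cores were present in 5 of 14 pore protein genes and 2 of 16 receptor genes. They stood in windows of genes that rose (Nup133), fell (Nup107, Nup62 and Xpot) and did not pass (Nup188, Nup50 and Xpo5), so they were found in all 3 kinds. These matches are a description of the letters in the window; a gene with several windows counts if any holds the motif, and the shares were not tested.

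In the Y complex, the outer scaffold ring, 2 of the 6 measured genes with Nup names rose, 1 fell and 3 did not pass. Its subunits Seh1l (-0.46 (SE 0.1, limma adjusted p = 0.00461), from a probe set that can bind several transcripts) and Sec13 (-0.45 (SE 0.08, limma adjusted p = 0.00124)), which the rule on symbols leaves out, both fell. With them 2 of 8 rose, 3 fell and 3 did not pass, where 22.1% of all genes rose and 22.0% fell. Ahctf1 (described below) rose by 0.33 and is left out of this count. The genes added to the complex were chosen after their values were seen, so the balance of the count depends on that choice. Nup133, which ties Y complexes to the membrane, rose from 9.19, 9.22 and 9.10 to 9.60, 9.55 and 9.39 (0.35 (SE 0.078, limma adjusted p = 0.00508)), and 3 of its 4 probe sets rose; the other, the dimmest, gave -0.25 and did not pass. Nup43 rose from 8.63, 8.53 and 8.63 to 9.06, 8.85 and 8.88 (0.34 (SE 0.079, limma adjusted p = 0.00631)), but its probe set can bind several transcripts, and its second one did not pass (0.19, limma adjusted p = 0.0881). Nup107, the partner of Nup133 in the complex, fell, from 9.90, 9.84 and 9.82 to 9.66, 9.64 and 9.60 (-0.22 (SE 0.067, limma adjusted p = 0.0218)). Its only probe set can also bind several transcripts, and its call was lost without control replicate 1 (limma adjusted p = 0.0903) or control replicate 2 (limma adjusted p = 0.0590). Nup37 (0.08), Nup160 (-0.053) and Nup85 (-0.13) did not pass, although the 3 starved arrays of Nup37 lay just above and those of Nup85 just below all control arrays.

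In the inner ring, which anchors the channel proteins, 2 of 3 measured members fell, where 22.0% of all genes fell. With 3 genes, this count is not a result about the ring. Nup93 fell from 9.95, 9.89 and 9.89 to 9.63, 9.59 and 9.56 (-0.32 (SE 0.067, limma adjusted p = 0.00334)). Nup155 fell from 8.08, 8.07 and 8.20 to 7.85, 7.72 and 7.84 (-0.32 (SE 0.074, limma adjusted p = 0.00593)), but its second probe set read 0.16 and did not pass, and the mean of both sets did not pass either. Nup188 (0.05) did not pass: starved replicate 3 read 7.91, below all control arrays, while the other starved arrays read 8.34 and 8.32, above them.

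Among the FG proteins of the central channel Nup62 fell alongside Nup98. Nup62 read 9.23, 9.28 and 9.12 in control and 8.97, 8.96 and 8.93 in starved cells (-0.25 (SE 0.071, limma adjusted p = 0.015)). The other 3 probe sets of Nup62 did not pass (-0.14, -0.065 and -0.030), the mean of the 4 did not pass, and the call was lost without control replicate 1 (limma adjusted p = 0.0557) or control replicate 2 (limma adjusted p = 0.0674). Nup54, its partner, showed a difference of -0.0054 (95% CI -0.16 to 0.15). On the nuclear basket, the filaments on the inner side of the pore, Nup153 was at -0.22 (limma adjusted p = 0.0805) with starved replicate 3 inside the control range, and without that array it passed. Nup50 did not pass with its brightest probe set (-0.13), while its other 2 sets fell (-0.43 and -0.51), as did their mean. Nup88 of the cytoplasmic face (0.1) did not pass, and neither did the membrane protein Nup210 (-0.14), whose signal near 4.5 is at the dim end of the arrays.

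Importin alpha proteins are adaptors that read the classical import signal. Of 5 measured 1 fell, 1 rose and 3 did not pass. This is 40% called, near the 44.1% of all genes, so the count is not a result about the adaptors. Kpna2 fell from 11.31, 11.25 and 11.32 to 10.92, 11.02 and 11.13 (-0.28 (SE 0.076, limma adjusted p = 0.0143)), a call lost without control replicate 3 (limma adjusted p = 0.0513). Its paralog Kpna6 rose by the brightest probe set, from 8.22, 8.40 and 8.42 to 8.80, 8.64 and 8.52 (0.3 (SE 0.092, limma adjusted p = 0.0229)), yet its other probe set fell (-0.46, limma adjusted p = 0.00328). Their mean was -0.081 and did not pass, so Kpna6 has no settled direction; the call was also lost without control replicate 1 (limma adjusted p = 0.0905), starved replicate 1 (limma adjusted p = 0.0713) or starved replicate 2 (limma adjusted p = 0.0511). Kpna1 did not pass with its brightest probe set (-0.17), whereas its other 4 sets fell, by 0.26 to 0.46, and the mean of the 5 fell. Kpna3 (0.073) and Kpna4 (-0.11) did not pass.

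**Figure D3:**
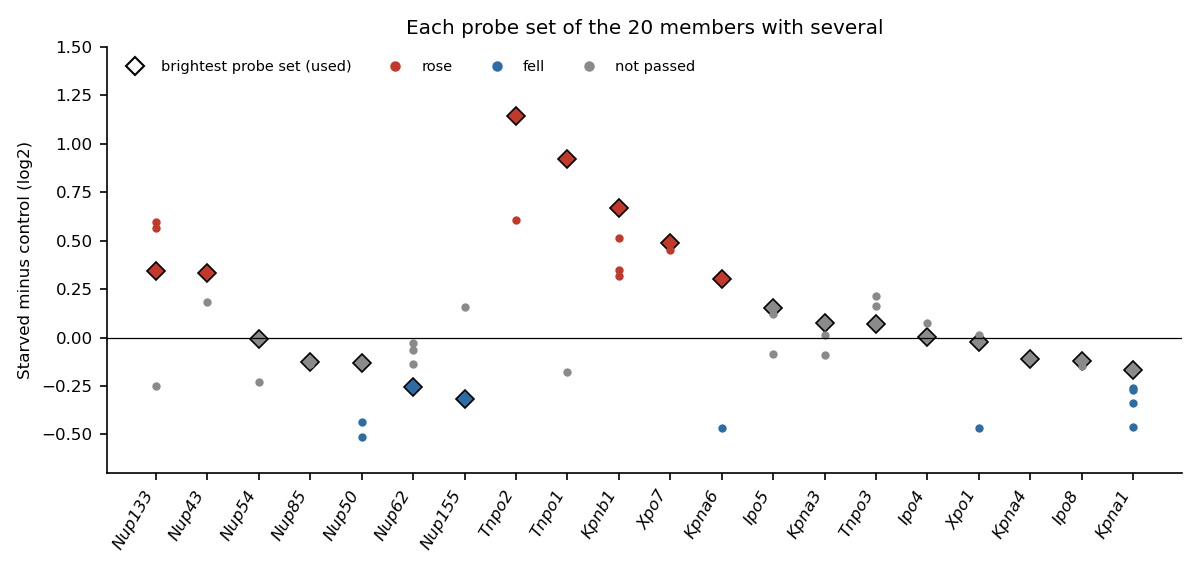
Difference between starved and control arrays on the log2 scale for every probe set of the 20 members that have several; diamonds are the brightest sets, which gave the reported values, and colours show the adjusted p below 0.05 with each probe set tested on its own. The sets of Kpnb1, Tnpo2 and Xpo7 all rose, those of Kpna6 went opposite ways, and in Kpna1, Nup50 and Xpo1 dimmer sets fell where the brightest did not pass.

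Other importers of the importin beta family mostly did not pass. Ipo11, which imports ubiquitin-conjugating enzymes, fell from 8.48, 8.55 and 8.42 to 8.17, 8.30 and 8.11 (-0.29 (SE 0.077, limma adjusted p = 0.0121)), a call lost without control replicate 2 (limma adjusted p = 0.0527). Ipo5 and Ipo7, importers of ribosomal proteins and histones, were at 0.15 (95% CI 0.0014 to 0.3) and 0.017 (95% CI -0.15 to 0.18). The starved arrays of Ipo5 all lay above the control arrays, and those of Ipo7 did not. Ipo4 (0.0023), Ipo9 (-0.017) and Ipo8 (-0.12) overlapped between groups.

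The exportins moved in both directions. Against the fall of Xpot, Xpo4, which exports the translation factor eIF5A, rose from 5.95, 6.01 and 5.87 to 6.29, 6.50 and 6.50 (0.49 (SE 0.082, limma adjusted p = 0.000786)). Xpo7, an exportin of broad cargo range, rose from 9.99, 9.90 and 9.98 to 10.31, 10.54 and 10.50 (0.49 (SE 0.081, limma adjusted p = 0.000745)), and its second probe set rose too (0.45). A further probe set that is listed for both Xpo4 and Lats2 read -0.29 (limma adjusted p = 0.0409) and was not used, since its signal cannot be given to either gene. Xpo1, the main exporter of proteins with leucine-rich signals, read 10.57, 10.51 and 10.57 in control and 10.46, 10.50 and 10.62 in starved cells by its brightest probe set, a difference of -0.025 (95% CI -0.18 to 0.13). Its second, nearly as bright set fell (-0.47, limma adjusted p = 0.00154), so its 2 bright sets gave different calls. Xpo5, the exporter of microRNA precursors (-0.072), and Xpo6, the exporter of actin (-0.094), did not pass.

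Over the whole set, the 95% intervals of the 21 genes that did not pass ran from -0.43 to 0.30 at their extremes. Control and starved arrays did not overlap for 21 of the 37 genes, or 56.8%, against 54.0% of all genes. The classes were also set against each other on each array, after every gene was centred on its own mean over the 6 arrays. The mean of the pore proteins minus that of the receptors was 0.085, 0.14 and 0.057 on the control arrays and -0.048, -0.16 and -0.076 on the starved arrays. The groups did not overlap in this contrast, which centring of the arrays cannot change. The difference between the class medians was -0.13, and it ranged from -0.20 to -0.083 when single arrays were left out. No p is given for it, because the genes were chosen and are not replicates of a condition. The listed genes that the rule on symbols leaves out, described below, had the opposite order. Their median difference was 0.065 for 11 pore proteins and -0.16 for 5 receptors, so the contrast holds for the 37 genes alone.

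**Figure D4:**
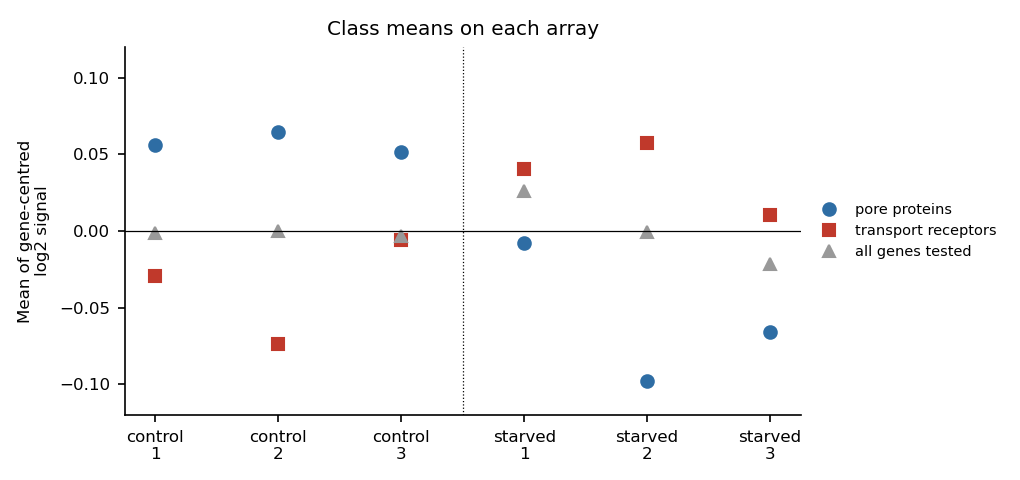
Mean of the gene-centred log2 signals of the 16 pore proteins, the 21 transport receptors and all 12393 genes on each array. Pore proteins lie above the receptors on the 3 control arrays and below them on the 3 starved arrays.

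Directions depended on how the arrays were scaled. Poly-A spike-ins, foreign transcripts added to the RNA, read 0.43 higher on starved arrays and hybridization spike-ins 0.19 higher; their offset is 1 value per array, shared by all genes and itself uncertain. After each array was centred on its poly-A spike-ins (poly-A centring), the median of all genes became -0.47, and 9321 of all 12393 genes fell. Beside this, 14 of 16 pore proteins fell and 0 rose, and 15 of 21 receptors fell and 3 rose, Tnpo1, Tnpo2 and Kpnb1. Most falls under this scaling are thus shared with the genes at large. Nup133, Nup43 and Kpna6 lay below 0 there (-0.080, -0.091 and -0.12, none past the threshold), and Xpo4 and Xpo7 did not pass. Centred on the hybridization spike-ins, 10 pore proteins fell and 0 rose, and 8 receptors fell and 5 rose. Among all genes, too, far more fell than rose under this scaling (counts given below). Under each of these scalings, and after centring of the arrays on their medians, the 8 genes that fell as deposited (Xpot, Nup98, Nup155, Nup93, Ipo11, Kpna2, Nup62 and Nup107) fell. Each of these centrings lowers every difference, so no fall could turn into a rise. These scalings are therefore no check of the falls.

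**Figure D5:**
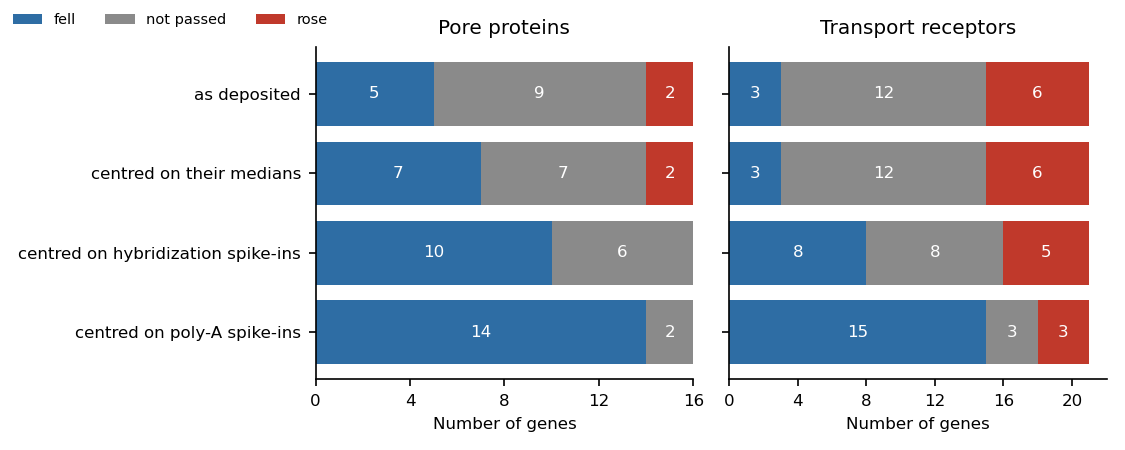
Number of pore proteins (left) and transport receptors (right) that fell, did not pass or rose under 4 scalings of the arrays (bars start at 0; adjusted p below 0.05). Pore proteins that fell number 5, 7, 10 and 14 from the deposited scaling to the poly-A spike-ins, and receptors that rose number 6, 6, 5 and 3.

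Pore proteins under other names were taken from a list. Of 11 measured, 5 fell and 3 rose, or 72.7% called beside 44.1% of all genes. After poly-A centring 8 fell and 0 rose, where 9321 of all 12393 genes fell. Seh1l and Sec13 of the Y complex are among those that fell. The channel protein Nupl1, partner of Nup62, fell by 0.56 (limma adjusted p = 0.000127), from a probe set that can bind several transcripts. Nupl2 of the cytoplasmic face fell by 0.75 (limma adjusted p = 0.0002). Aaas rose by 0.59 and Gle1, which activates the helicase of messenger RNA export, by 0.35; after poly-A centring Aaas did not pass and Gle1 lay below 0 (-0.074). Ahctf1, which starts pore assembly on chromatin, rose by 0.33 and lay below 0 after poly-A centring (-0.097). The membrane protein Pom121 fell (-0.23), while Ranbp2 (0.12) and Ndc1 (0.065) did not pass. Of 5 receptors under other names 2 fell and 0 rose. This is 40% called, near the share of all genes, of which 22.0% fell. After poly-A centring all 5 fell. The 2 were Cse1l (-0.28), which returns importin alpha to the cytoplasm, and the messenger RNA export cofactor Nxt1 (-0.4). The export receptor Nxf1 did not pass (-0.16).

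The Ran cycle supplies the direction of transport, and 4 of its 6 listed genes fell and 1 rose. This is 83.3% called, beside 44.1% of all genes, of which 22.0% fell. After poly-A centring all 6 fell, as did 9321 of all 12393 genes. Rcc1, the exchange factor that loads Ran with GTP in the nucleus, went from 8.10, 7.97 and 8.10 to 7.30, 7.08 and 7.09 (-0.9 (SE 0.083, limma adjusted p = 1.78e-05)). Ranbp1 (-0.57), Ran (-0.27) and Ranbp3 (-0.22) fell too. Rangap1, which triggers GTP hydrolysis by Ran in the cytoplasm, rose by 0.19 (limma adjusted p = 0.0413), a call that was lost under centring on the array medians and turned into a fall after poly-A centring. Of 13 messenger RNA export genes 5 fell, 0 rose and 8 did not pass. This is 38.5% called, beside 44.1% of all genes, but all 5 calls were falls, and 22.0% of all genes fell. After poly-A centring all 13 fell. Thoc6 (-0.59) and Thoc3 (-0.46), subunits of the THO complex, had the smallest adjusted p. These lists were written with earlier results of the series known, and their counts were not tested as sets.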

How the data were processed

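Biotin-labelled cRNA of 6 fibroblast samples was hybridised to 1-colour oligonucleotide arrays, per the labels' protocols. The authors deposited log2 signals, 1 per probe set and array, made with affy and RMA per the submitters' processing notes (version numbers not given in the sources used here). The RMA step fixes each array's signal distribution, so a change in total messenger RNA per cell is removed, and it compresses folds of dim genes. Arrays hold no read depth, so their number limits the precision.

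Of 22690 probe sets 20380 had 1 gene in the platform annotation and were used; 691 with several genes, 1555 with none listed and 64 controls were left out. A gene took its brightest probe set over all arrays, which gave 12393 genes. Groups came from sample titles. All arrays entered limma 3.58.1 in R 4.3.3 (lmFit, eBayes, two-sided, no covariate, Benjamini-Hochberg over all genes, threshold 0.05), which was tested on simulated data. Tables and plots were made with Python 3.11.15, pandas 2.3.3 and matplotlib 3.10.9.

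Values on each array are given for the 4 largest rises and falls of each class past the threshold, for Kpnb1, Xpo1, Nup98 and Nup62, and for paralogs that went opposite ways; other lists give up to 2 genes each way and a few fixed genes. Ranbp3, Lbr, Syne1, Syne2, Pias2 and Pias4 and the array values of Xpo7, Nup107, Nup188 and Rcc1, as well as Seh1l, Sec13 and Ahctf1, were added after their values were seen. The genes and lists were chosen with earlier results of these data known. Members of the lists without a probe set of 1 gene, such as Tpr, were not analysed here. Alternatives changed the probe sets, dim genes, scaling, moderation, weights, threshold, replicate block and single arrays.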

Additional observations from a re-analysis of the deposited data

How the results depend on the processing

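In every alternative run, the gap between the class medians kept its sign (-0.13; -0.20 to -0.083 without single arrays). Pore proteins that fell numbered 5 in the main setting and 3 to 6 without single arrays; receptors that rose 6 and then 5 or 6. The receptor median (0.0023) lay between -0.0075 and 0.053 without single arrays, so its sign is not settled.

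Scaling moved counts most. After poly-A centring, 860 genes rose and 9321 fell, 0 pore proteins rose and 14 fell, 3 receptors rose and 15 fell, and the medians were -0.56 for pore proteins and -0.42 for receptors. On the hybridization spike-ins these were 1673 and 6102 genes, 0 and 10 pore proteins, 8 receptors that fell, and medians of -0.32 and -0.19. Centring on array medians gave -0.18 and -0.048, and a further quantile normalization 8 fallen pore proteins and a receptor median of -0.062. Without probe sets that can bind several transcripts, 13 pore proteins were measured, 1 rose, and the receptor median was 0.045. An adjusted p below 0.01 left 1782 fallen genes, 3 fallen pore proteins and 1 fallen receptor. Treat against a fold change of 1.2 left 1314 risen and 939 fallen genes, 0 risen and 1 fallen pore proteins, and 3 risen and 1 fallen receptors.

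Of the 16 members above 0 as deposited, 11 lay below 0 after poly-A centring: Nup133 (-0.080), Nup43 (-0.091) and Kpna6 (-0.12) did not pass there, and Ipo4 (-0.42), Ipo5 (-0.28), Ipo7 (-0.41), Kpna3 (-0.35), Nup188 (-0.38), Nup37 (-0.35), Nup88 (-0.32) and Tnpo3 (-0.36) fell. This follows from subtracting 0.43 from each difference. On the hybridization spike-ins 8 members and on array medians 2 turned below 0, none of them called there or as deposited. The mean of the probe sets turned Kpna6 (-0.081), and single dimmer probe sets turned Kpna6 (-0.46), Nup133 (-0.25), Nup155 (0.16) and Tnpo1 (-0.18); the cause was not tested.

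The labels number replicates 1 to 3 in both groups. The deviations of same-numbered arrays correlated at -0.0046, -0.022 and 0.0021 over genes, which gives no sign of a pairing. These values cannot show whether same-numbered arrays shared a culture or batch. With the replicate block 2669 genes rose and 2605 fell, and the pairing changed no call count of the members: 2 pore proteins rose and 5 fell, and 6 receptors rose and 3 fell.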

Other observations

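The lamina and envelope carry the pores. Of 14 measured genes of the lamina and envelope 8 rose and 3 fell, with a median difference of 0.33 and 78.6% called beside 44.1% of all genes. After poly-A centring the balance turned, with 4 risen, 5 fallen and a median of -0.097. Syne2, a nesprin that links the nucleus to the cytoskeleton, rose from 5.87, 5.59 and 6.06 to 8.41, 7.59 and 8.06 (2.18 (SE 0.19, limma adjusted p = 1.09e-05), from a probe set that can bind several transcripts). Its relative Syne1 (1.10) and their inner membrane partner Sun2 (1.01) rose as well, as did the torsin cofactor Tor1aip1 (1.09). These 4 genes are those that also rose after poly-A centring. Lmna rose by 0.53, a call lost after poly-A centring (0.11), whereas the B-type lamins Lmnb1 (-0.61) and Lmnb2 (-0.54) and the lamin B receptor Lbr (-0.39) fell. 

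In the SUMO pathway, which modifies proteins at the pore, 4 of 8 measured genes rose and 0 fell in the deposited scaling, all 4 of them ligases of the PIAS family. This is 50% called, near the 44.1% of all genes, but all 4 calls were rises, and 22.1% of all genes rose. Pias3 rose by 1.09 and Pias1 by 0.7, and both rose after poly-A centring too (0.66 and 0.28). Pias4 (0.25) and Pias2 (0.21) lost their calls there and after centring on the array medians, and the other 4 genes of the list fell after poly-A centring, of which Sae1 and Senp2 also fell on array medians.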
